A study of Mus musculus with 12 samples.

Results

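The transcription factors that define the mature hepatocyte were followed in normal mouse liver and in c-MYC-driven liver tumors treated with a vehicle, MLN0128 or everolimus. The 9 genes were chosen by symbol: Hnf4a, Foxa1, Foxa2, Foxa3, Cebpa, Cebpb, Onecut1, Nr1h4 and Prox1. Each matched 1 of the 17007 rows of the expression table, and each was among the 14397 genes with at least 0.5 FPKM (fragments per kilobase of exon, relative to library size) in at least 3 libraries. All 9 were detected in all 12 libraries. Hepatocyte identity rests on a set of factors that bind one another's genes and share the enhancers of liver genes. The FOXA proteins open chromatin early in liver development, HNF4A and C/EBPα switch on the genes of lipid, glucose and plasma protein metabolism, HNF6 (Onecut1) and PROX1 act in liver growth and hepatocyte fate, and FXR (Nr1h4) senses bile acids. Loss of several of these factors is a known feature of dedifferentiated liver cancer.

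Each of the 4 groups held 3 libraries. The normal livers came from wild-type C57BL/6 mice. All tumors carried c-MYC and MCL1 with loss of Rictor and Tsc2 (c-MYC/MCL1/Rictor KO Tsc2 KO), and were made in mice with floxed alleles (Rictor fl/fl and Tsc2 fl/fl) by injecting the oncogene plasmids and pCMV-Cre hydrodynamically into the tail vein, a method that puts DNA into hepatocytes. Rictor is needed for mTORC2, and TSC2 restrains mTORC1. From 6 days after injection the mice received by gavage either vehicle, the mTOR kinase inhibitor MLN0128 at 1 mg/kg/day or everolimus, a rapamycin analog that acts on mTORC1, at 1 mg/kg/day. Per the labels, dosing ran for 3 weeks at 6 days a week and the mice were sacrificed 3.7 weeks after injection, but the sources used here differ on the length of treatment of these tumors, which may have been days rather than weeks. The everolimus group differed from the vehicle tumors in the labels by the drug alone, and the MLN0128 group also in the sex chromosome content of 2 libraries given below. Every tumor group differed from normal liver by oncogenes, deletions, injection, gavage and mouse line together, and these cannot be told apart. Only hepatocytes that take up the plasmids are changed, so a tumor sample also holds host cells with intact alleles. Sex is not given in the labels, and whether libraries of a group came from separate mice is given only as a number per group.

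Recovered reads, obtained from FPKM and exon lengths, ranged from 17168808 to 25186161 per library. The scaling between libraries in the table corresponded to factors of 0.585 to 0.595 for normal liver and 1.10 to 1.37 for the tumors. Rictor was at 1.65 to 2.57 FPKM in normal liver and at 1.05 to 2.21 FPKM in the tumors, and Tsc2 at 4.5 to 5.32 and 2.01 to 3.96 FPKM, values for whole genes that do not resolve the floxed exons. The tissue labels fit the markers: 11 of 12 listed hepatocyte markers were in the table, summed to 87792 to 106902 FPKM in normal liver, and none was at 0 in any library, whereas the same sum was 5630 to 8949 FPKM in vehicle tumors and 2918 to 10813 FPKM in treated tumors. MLN0128 libraries 1 and 2 stood apart, with Xist at 191 and 155 FPKM and all 4 Y-linked genes examined at 0. In the other 10 libraries Xist was at most 0.0699 FPKM and the Y-linked genes summed to 20.3 to 96.97 FPKM. Results for MLN0128 are therefore also given without these libraries. That fit keeps 1 MLN0128 library, which has no spread of its own, so a call can be lost there without a smaller difference. In bulk tissue, fewer hepatocytes and less RNA per hepatocyte cannot be told apart.

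In normal liver, Cebpa was the most abundant of the 9 factors, at 477, 363 and 309 FPKM. Hnf4a, the nuclear receptor at the center of the hepatocyte program, followed at 217, 239 and 199 FPKM, and Cebpb, the C/EBP of the acute phase and of regeneration, at 151, 178 and 205 FPKM. Nr1h4 was at 98.2 to 114 FPKM and Foxa3 at 62.5 to 81.4 FPKM. Foxa2, Foxa1, Prox1 and Onecut1 were lower, with means of 19, 13.3, 12.6 and 11.9 FPKM. The ranges of neighbors in this order did not overlap between Cebpa and Hnf4a, Cebpb and Nr1h4, Nr1h4 and Foxa3, or Foxa3 and Foxa2, but did overlap between Hnf4a and Cebpb and among the 4 lowest genes. Onecut1 and Foxa1 varied most between normal livers (coefficients of variation of 58% and 41.4%, n = 3), and normal liver 1 was the highest of its group for 5 of the 9 factors. FPKM are per length, so these levels compare genes, but the table holds 1 value per gene and does not separate the P1 and P2 isoforms of Hnf4a.

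**Figure D1:**
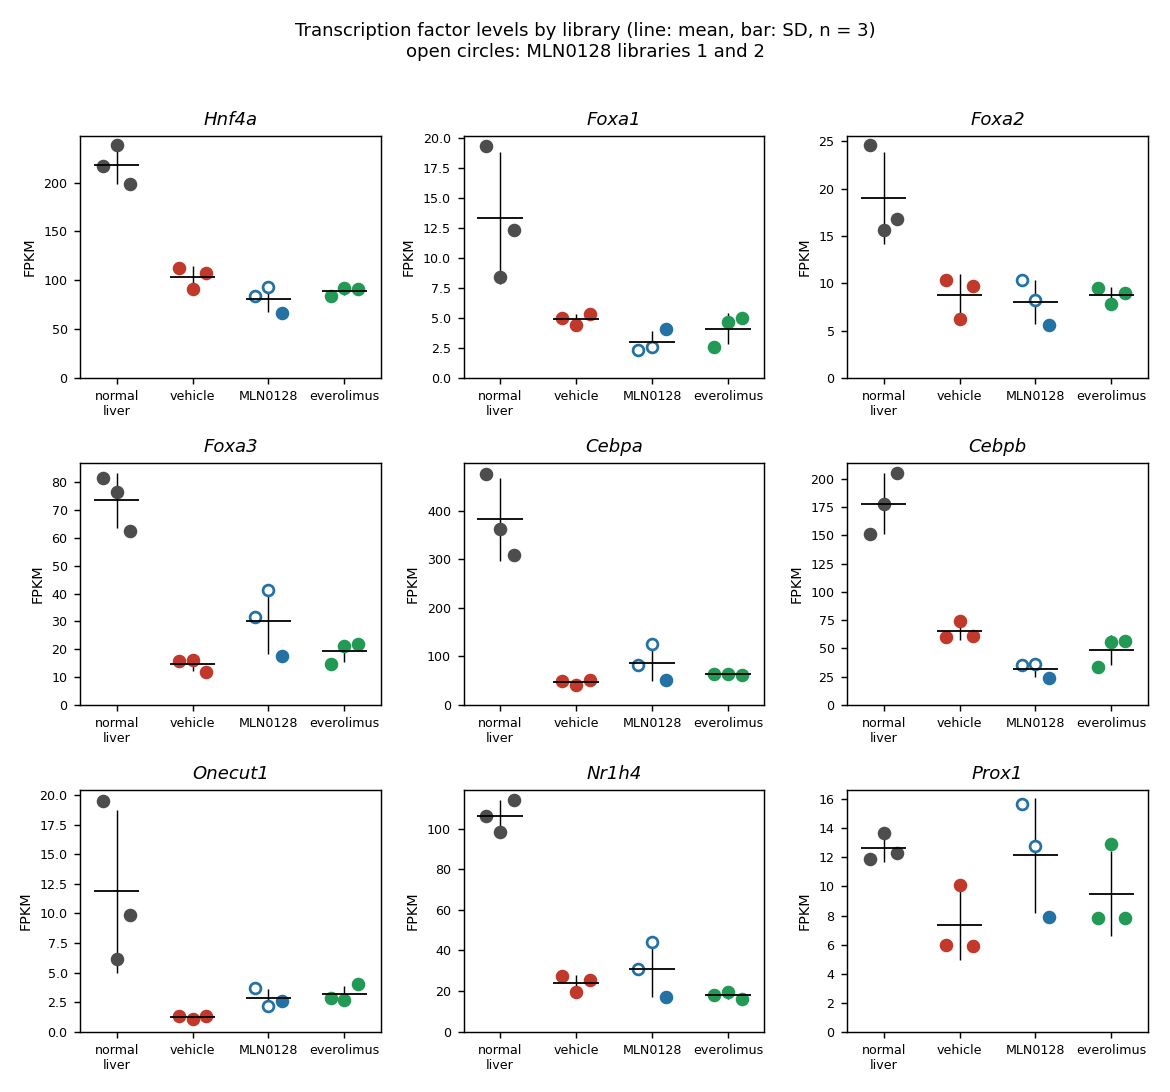
FPKM of the 9 transcription factors (vertical axes, linear from 0) in each library of the 4 groups (horizontal axes). Points are libraries, the horizontal line is the mean and the vertical bar the SD (n = 3). For all 9 genes the normal livers lie above all vehicle tumors, with Cebpa at 309 to 477 against 40.9 to 50.5 FPKM, and open circles mark MLN0128 libraries 1 and 2.

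The genes lie on 6 chromosomes. On GRCm38 (GENCODE M21), Cebpa is at chr7:35119293-35121928 and Foxa3 at chr7:19013284-19023538, Hnf4a is at chr2:163506808-163572910, Foxa2 at chr2:148042877-148046969 and Cebpb at chr2:167688915-167690418. Onecut1 is at chr9:74861921-74891781, Nr1h4 at chr10:89454234-89533585, Foxa1 at chr12:57540628-57546916 and Prox1 at chr1:190118035-190170714. Exons of other genes cover 20.7% of the exon bases of Cebpb (Tmem189, opposite strand), 52.8% of those of Onecut1 (Gm20649, same strand), 1.93% of those of Cebpa and 1.58% of those of Prox1. Tmem189 was at 1.29 to 3.43 FPKM, low beside Cebpb, and Gm20649 was not in the expression table. How reads in such stretches were counted is not given in the sources used here. The levels of Cebpb and, more so, of Onecut1 are therefore less certain than those of the other 7 genes.

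The 250 bases upstream of the start are shown for the 4 genes on which the drug comparisons turn, Cebpa and Foxa3 (called higher with MLN0128), Onecut1 (higher in every drug-treated tumor than in every vehicle tumor) and Cebpb (lower with MLN0128). In MLN0128 library 3 alone the log2 differences of Cebpa and Foxa3 from vehicle were only 0.155 and 0.27. The sequences are from RefSeq (GRCm38.p6), 5′ to 3′ on the gene's strand, with motif matches in capitals: TATAAA in Cebpa (chr7:35119043-35119292, plus strand) and Foxa3 (chr7:19023540-19023789, minus strand), and the E-box CACGTG, the canonical site of MYC and MAX, in Onecut1 (chr9:74861671-74861920, plus strand). Cebpb (chr2:167688665-167688914, plus strand) held no match.
Cebpa: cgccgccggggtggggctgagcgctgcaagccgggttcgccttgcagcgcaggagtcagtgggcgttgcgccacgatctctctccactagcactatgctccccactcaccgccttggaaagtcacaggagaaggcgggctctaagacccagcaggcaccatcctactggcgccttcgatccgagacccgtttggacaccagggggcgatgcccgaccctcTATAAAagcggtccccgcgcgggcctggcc
Foxa3: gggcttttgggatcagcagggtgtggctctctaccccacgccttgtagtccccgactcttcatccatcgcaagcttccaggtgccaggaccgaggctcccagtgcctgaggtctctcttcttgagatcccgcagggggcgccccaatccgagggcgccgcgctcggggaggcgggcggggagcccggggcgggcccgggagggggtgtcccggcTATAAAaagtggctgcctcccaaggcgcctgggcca
Onecut1: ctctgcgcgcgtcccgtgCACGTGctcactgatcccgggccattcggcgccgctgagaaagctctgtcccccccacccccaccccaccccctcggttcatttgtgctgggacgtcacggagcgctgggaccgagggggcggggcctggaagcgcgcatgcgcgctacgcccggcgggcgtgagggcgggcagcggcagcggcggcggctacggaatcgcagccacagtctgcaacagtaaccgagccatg
Cebpb: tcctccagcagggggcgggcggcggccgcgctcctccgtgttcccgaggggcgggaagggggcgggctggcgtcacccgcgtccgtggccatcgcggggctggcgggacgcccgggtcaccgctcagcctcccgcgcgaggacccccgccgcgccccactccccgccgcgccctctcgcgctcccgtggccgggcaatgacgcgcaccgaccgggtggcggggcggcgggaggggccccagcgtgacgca

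The TATAAA of Cebpa begins 30 bases before the start and that of Foxa3 36 bases before it. These letters, on either strand, were in 12.4% of 32851 mouse promoter windows of this length. The E-box of Onecut1 lies 232 to 227 bases upstream, and CACGTG was in 6.02% of windows. The 9 genes have 13 windows, of which 4 held TATAAA, 1 the E-box and 1, that of Foxa1, the FOXA letters TGTTTAC (3.17% of windows). The letters searched for C/EBP (TTGCGCAA, 0.164% of windows), HNF6 (ATCGAT, 0.728%) and HNF4 (CAAAGTCCA, 0.384%) were in none of the 13. The window of Cebpb was 81.6% G or C with 41 CpG dinucleotides, that of Onecut1 71.6% with 31, and that of Nr1h4 44.4% with 5, beside medians of 52.4% and 6 over all windows.

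All 9 factors were lower in vehicle tumors than in normal liver (adjusted p below 0.05, moderated test of limma on log2(FPKM + 1)), a comparison in which 33% of all tested genes were called lower and 36% higher. The same 9 had no overlap between the groups, a pattern that 35.1% of tested genes showed in this direction and 39% in the other. The median log2 fold change was −1.43 over the 9 genes and 0.06 over all tested genes. Against a minimum change of 1.5-fold, 6 were called lower (all but Foxa1, Foxa2 and Prox1), beside 16.9% of tested genes (15.9% higher).

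Of the C/EBP factors, Cebpa had the lowest log2 fold change of the 9 genes on this scale, close to that of the low gene Onecut1 with a pseudocount of 0.1 (−3.02 and −2.99). It went from 309 to 477 FPKM in normal liver to 48.7, 40.9 and 50.5 FPKM in vehicle tumors (log2 fold change −2.99, SE 0.26, adjusted p = 1.41e-06). Cebpb was at 60.4, 74.2 and 60.8 FPKM in vehicle tumors against 151 to 205 FPKM in normal liver (log2 fold change −1.43, SE 0.22, adjusted p = 0.000136). Every normal liver thus had more Cebpa than Cebpb, and every vehicle tumor had more Cebpb than Cebpa.

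Among the FOXA genes, which encode forkhead factors of related DNA binding, Foxa3 fell from 81.4, 76.6 and 62.5 FPKM to 15.6, 16.2 and 11.8 FPKM (log2 fold change −2.27, SE 0.26, adjusted p = 1.33e-05). Foxa1 fell from 19.3, 8.4 and 12.3 FPKM to 4.97, 4.38 and 5.29 FPKM (−1.22, SE 0.27, adjusted p = 0.00188), and Foxa2 from 24.6, 15.6 and 16.8 FPKM to 10.3, 6.2 and 9.69 FPKM (−1.04, SE 0.23, adjusted p = 0.0017). The groups did not overlap for any of the 3, and the ratio of Foxa3 to Foxa2 within a library was lower in every vehicle tumor (1.22 to 2.61) than in every normal liver (3.31 to 4.91).

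Onecut1, the lowest of the 9 in normal liver, went from 19.5, 6.17 and 9.9 FPKM to 1.35, 1.07 and 1.34 FPKM, which rested on 93 to 128 recovered reads per vehicle library. Its log2 fold change was −2.38 (SE 0.30, adjusted p = 2.6e-05) and −2.99 with a pseudocount of 0.1, since adding 1 FPKM understates changes of low genes. Nr1h4 fell from 106, 98.2 and 114 FPKM to 27.2, 19.7 and 25.5 FPKM (−2.10, SE 0.26, adjusted p = 2.19e-05). Hnf4a went from 217, 239 and 199 FPKM to 113, 91.4 and 107 FPKM (−1.07, SE 0.15, adjusted p = 4.52e-05), a 2.10-fold difference on the FPKM + 1 scale beside 7.95-fold for Cebpa. Prox1, which is needed for hepatocyte migration during liver development, changed least, from 11.9, 13.7 and 12.3 FPKM to 5.98, 10.1 and 5.92 FPKM (−0.74, SE 0.26, adjusted p = 0.0224). The call for Prox1 was lost without normal liver 2, vehicle 1 or vehicle 3 (adjusted p = 0.0642, 0.079 and 0.0804).

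With another scaling between libraries 5 of the 9 calls were lost. With plain library totals the median of all tested genes rose by 0.57 (log2), to 0.63, and 4 factors were still called lower: Cebpa (−2.06), Onecut1 (−1.61), Foxa3 (−1.35) and Nr1h4 (−1.18). The shares of all tested genes given above hold for the deposited scaling, and those under plain totals are not given here. Hnf4a was then at −0.14, Foxa2 at −0.17, Foxa1 at −0.38, Cebpb at −0.50 and Prox1 at 0.10, none of them called and each below the median of all genes. The position of a gene among the tested genes of its own library does not change with such scaling. Hnf4a stood at percentiles 97.1 to 97.5 in normal liver and 96.9 to 97.3 in vehicle tumors, with overlapping ranges. Cebpa moved from 98.0 to 98.7 down to 92.3 to 93.9, Nr1h4 from 94.6 to 95.3 down to 83.8 to 87.9, Foxa3 from 92.3 to 93.6 down to 73.6 to 80.3, and Onecut1 from 59.7 to 80.6 down to 23.5 to 26.8. Those 4 ranges did not overlap between the groups, nor did those of the other 4 genes, of which Prox1 (73.0 to 75.4 against 57.4 to 70.5) and Cebpb (96.2 to 97.2 against 94.8 to 96.1) lay closest. The share of all tested genes that separate by percentile is not given here, so this count does not set the factors apart from other genes.

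**Figure D2:**
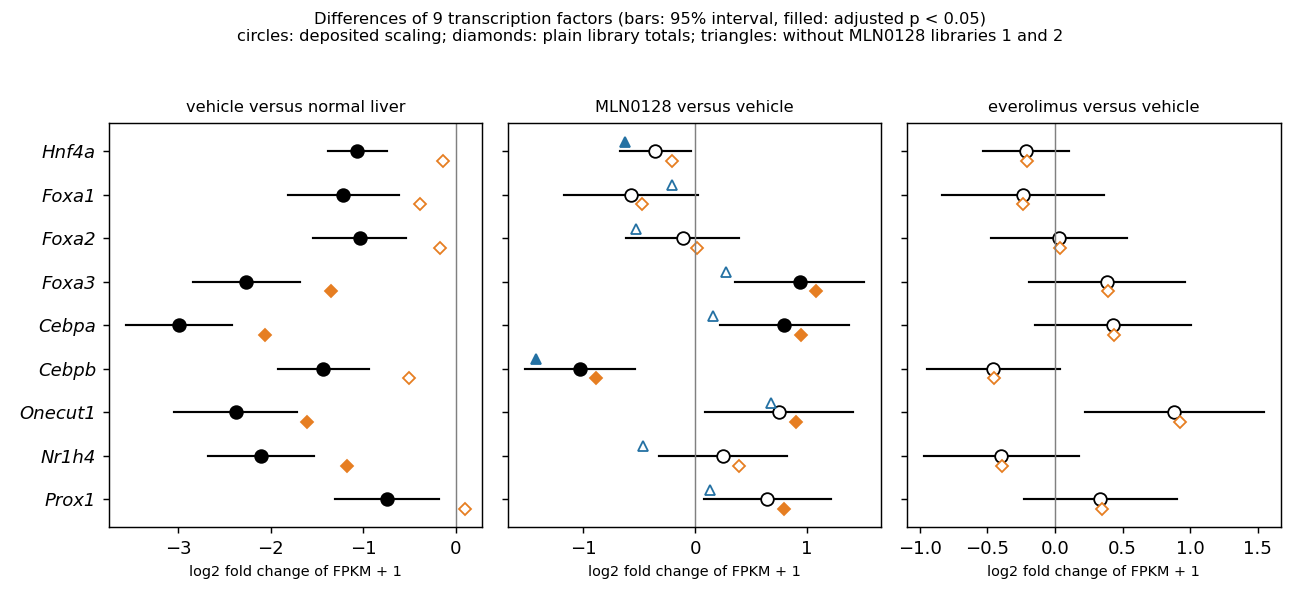
Log2 fold changes of log2(FPKM + 1) (horizontal axes) of the 9 factors for vehicle tumors against normal liver and for each drug against vehicle. Circles with 95% intervals use the deposited scaling, diamonds plain library totals and triangles the fit without MLN0128 libraries 1 and 2, and filled symbols have an adjusted p below 0.05. Cebpa, Foxa3, Onecut1 and Nr1h4 lie below 0 and are filled under both scalings on the left, and Cebpb is filled under all 3 settings in the middle. Each triangle rests on 1 MLN0128 library.

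MLN0128 tumors differed from vehicle tumors in 3 of the 9 factors, with Foxa3 and Cebpa higher and Cebpb lower. In this comparison 14.9% of tested genes were called higher and 17.1% lower, so the share of factors called was near that of all genes. None passed the test against a 1.5-fold change, which 0.479% of genes passed as higher and 1.65% as lower. Groups did not overlap for 5 of the 9 (Foxa3, Cebpa and Onecut1 higher, Cebpb and Foxa1 lower), a pattern shown by 22.1% of tested genes upward and 23.4% downward.

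Cebpb was at 35.3, 36.3 and 23.6 FPKM with MLN0128 and at 60.4 to 74.2 FPKM with vehicle. The log2 fold change was −1.03 (SE 0.22, adjusted p = 0.00528), and the 3 MLN0128 libraries were all below every vehicle library. Library 3 alone gave −1.42, in a fit whose spread comes from the other groups and not from MLN0128 tumors. The call held in each of the 21 alternative settings, that fit included (limma, adjusted p from 0.00228 to 0.0225). Cebpb thus lay further from normal liver with MLN0128 than with vehicle.

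Foxa3 was at 31.4, 41.3 and 17.6 FPKM with MLN0128 and 11.8 to 16.2 FPKM with vehicle (log2 fold change 0.93, SE 0.26, adjusted p = 0.0195). Cebpa was at 82.9, 126 and 51.9 FPKM with MLN0128 and 40.9 to 50.5 FPKM with vehicle (0.80, SE 0.26, adjusted p = 0.0372). For both genes libraries 1 and 2 were far above vehicle and library 3 lay just above its range. Without libraries 1 and 2 neither call remained, with Foxa3 at 0.27 (adjusted p = 0.523) and Cebpa at 0.16 (adjusted p = 0.704), where the 1 remaining library is assumed to vary like the other groups. The call for Cebpa was also lost without MLN0128 library 1 or 2, any 1 vehicle library or everolimus library 3, and that for Foxa3 without MLN0128 library 1 or 2 or vehicle library 3 (adjusted p from 0.0505 to 0.116 over these settings).

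The other 6 factors did not pass the test. Prox1 was at 15.7, 12.8 and 7.92 FPKM with MLN0128 (0.65, adjusted p = 0.0767) and Nr1h4 at 30.7, 44.3 and 17 FPKM (0.25, adjusted p = 0.502), again with libraries 1 and 2 high and library 3 within the vehicle range of Prox1 and below that of Nr1h4. In library 3 alone the log2 fold changes were 0.13 and −0.47. Onecut1 was at 3.7, 2.21 and 2.6 FPKM, above every vehicle library (0.75, adjusted p = 0.0784). Hnf4a was at 83.9, 93.2 and 66.5 FPKM (−0.36, adjusted p = 0.0805, and −0.63 in library 3 alone), Foxa1 at 2.33, 2.59 and 4.08 FPKM (−0.58, adjusted p = 0.128) and Foxa2 at 10.3, 8.18 and 5.63 FPKM (−0.11, 95% interval −0.62 to 0.39). MLN0128 library 3 was the lowest of its group for 7 of the 9 factors, all but Foxa1 and Onecut1. The hepatocyte marker sum was 3796 and 5902 FPKM in libraries 1 and 2 and 2918 FPKM in library 3, beside 5630 to 8949 FPKM with vehicle. The mean of log2(FPKM + 1) over the same markers, which weighs low and high genes alike, was 7.63, 8.34 and 7.22. With vehicle that mean was 7.70 to 8.23. Library 2 was thus above the vehicle range by the mean and within it by the sum. The part that sex chromosome content played in these differences was not tested.

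With everolimus none of the 9 factors was called against vehicle by limma, and 1, Onecut1, had an unadjusted p below 0.05. Over all tested genes 3.78% were called higher and 6.05% lower, and against a 1.5-fold change 0.0347% were called higher and 0.57% lower. Onecut1 was at 2.87, 2.67 and 4.01 FPKM with everolimus and 1.07 to 1.35 FPKM with vehicle (log2 fold change 0.88, 95% interval 0.22 to 1.54, adjusted p = 0.0863). It was called with a pseudocount of 0.1 (1.26, adjusted p = 0.0461) and in the fit to the 6 libraries alone (adjusted p = 0.0278). The 3 everolimus libraries were all above the vehicle libraries, as were the 3 MLN0128 libraries, and both comparisons share those vehicle libraries.

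Cebpa was at 63, 64.1 and 61.8 FPKM with everolimus, a coefficient of variation of 1.83% (n = 3) that was the lowest of any gene and group among the 9, and above every vehicle library, but its difference of 0.43 (adjusted p = 0.325) did not pass the test. Cebpb was at 33.1, 55.8 and 56.1 FPKM (−0.46, adjusted p = 0.218) and Nr1h4 at 18.1, 19.5 and 16.3 FPKM (−0.40, adjusted p = 0.363), both below every vehicle library. Upward and downward separation of the groups was found for 2 factors each, beside 17.6% and 14.8% of tested genes. Hnf4a (83.8, 91.6 and 91.3 FPKM), Foxa1 (2.61, 4.69 and 4.99), Foxa2 (9.49, 7.85 and 8.99), Foxa3 (14.8, 21.3 and 22) and Prox1 (7.81, 12.9 and 7.81) overlapped with vehicle. Their 95% intervals ran from −0.84 at the lowest (Foxa1) to 0.96 at the highest (Foxa3), so differences within these intervals cannot be told from none.

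The drugs were given at the same dose and for the same time, and no factor was called between them by limma, beside 3.99% of genes higher and 5.54% lower with MLN0128 (against a 1.5-fold change, 0.00695% and 0.0347%). Cebpb (−0.58, 95% interval −1.07 to −0.09, adjusted p = 0.126) and Nr1h4 (0.64, 0.07 to 1.22, adjusted p = 0.141) had unadjusted p below 0.05, and no factor separated the groups (12.5% of genes did so upward and 15.2% downward). Foxa3 was 0.55 higher with MLN0128 (95% interval −0.03 to 1.13). Without MLN0128 libraries 1 and 2 the differences for Nr1h4 and Foxa3 changed sign, to −0.072 and −0.11.

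Against normal liver, 8 factors were lower in MLN0128 tumors and 8 in everolimus tumors, beside 35.5% and 34.3% of tested genes lower (37.1% higher with MLN0128). Against a 1.5-fold change 8 were lower with MLN0128 and 7 with everolimus, beside 20.2% and 18.4% of genes, and with plain library totals 2 in each. With plain totals 7 factors were called with MLN0128, of which Prox1 was higher, and 5 with everolimus. The shares of all genes given here are those of the deposited scaling and do not apply to the counts with plain totals. The gene not called in either group was Prox1, at −0.10 (95% interval −0.66 to 0.47) with MLN0128 and −0.41 (−0.97 to 0.16) with everolimus, and 0.89 (adjusted p = 0.00733) and 0.45 with plain totals. Foxa2, at −1.01 with everolimus, also missed the test against 1.5-fold. These comparisons share the normal livers. The same 8 factors did not overlap with normal liver in either drug group (36.3% of genes were apart and lower and 38.8% higher with MLN0128, 35.4% and 38.5% with everolimus). Cebpb had the lowest log2 fold change of the 9 with MLN0128 (−2.46, SE 0.22), ahead of Cebpa (−2.19, SE 0.26), whereas Cebpa (−2.56, SE 0.26) and Nr1h4 (−2.50, SE 0.26) were lowest with everolimus. Onecut1 was at −1.63 with MLN0128 and −1.5 with everolimus.

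Ratios of 2 factors within a library do not depend on scaling between libraries. The ratio of Cebpb to Cebpa was 0.317, 0.490 and 0.663 in normal liver and 1.24, 1.81 and 1.2 in vehicle tumors. It was 0.426, 0.288 and 0.455 with MLN0128 and 0.525, 0.871 and 0.908 with everolimus. All 6 drug-treated tumors, MLN0128 library 3 included, were therefore below all 3 vehicle tumors, and all MLN0128 tumors were below all everolimus tumors. On the log2 scale vehicle exceeded normal liver by 1.57, and the drugs were below vehicle with differences of −1.87 (MLN0128) and −0.90 (everolimus). MLN0128 and normal liver overlapped, with a difference of −0.29 (exact permutation p = 0.4, two-sided). With 3 libraries against 3, the two-sided exact permutation test cannot give less than p = 0.1, which is 0.174 after adjustment over the 54 ratio comparisons made.

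The ratio of Cebpa to Hnf4a, added after the values were seen, was 2.20, 1.52 and 1.55 in normal liver and 0.431, 0.448 and 0.472 in vehicle tumors. It was 0.988, 1.35 and 0.780 with MLN0128 and 0.752, 0.700 and 0.677 with everolimus, so both drug groups lay between vehicle and normal liver without overlap. Onecut1 relative to Hnf4a was 0.0258 to 0.0899 in normal liver, 0.0117 to 0.0125 in vehicle tumors, 0.0237 to 0.0441 with MLN0128 and 0.0291 to 0.0439 with everolimus. Here vehicle stood below the other 9 libraries, and the drug groups overlapped with normal liver. Foxa1 relative to Foxa3 was 0.0742 and 0.0627 in MLN0128 libraries 1 and 2 but 0.232 in library 3, which lay just below the vehicle range of 0.270 to 0.448. Nr1h4 relative to Hnf4a was higher with MLN0128 than with vehicle by 0.62 and than with everolimus by 0.81 on the log2 scale, without overlap (exact permutation p = 0.1 each, the smallest possible). Libraries 1 and 2 were at 0.366 and 0.475 and library 3 at 0.256, just above the vehicle range of 0.215 to 0.241, and with library 3 alone the differences were 0.14 and 0.34. For Cebpb to Cebpa, library 3 alone gave −1.62 against vehicle and −0.71 against everolimus.

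**Figure D3:**
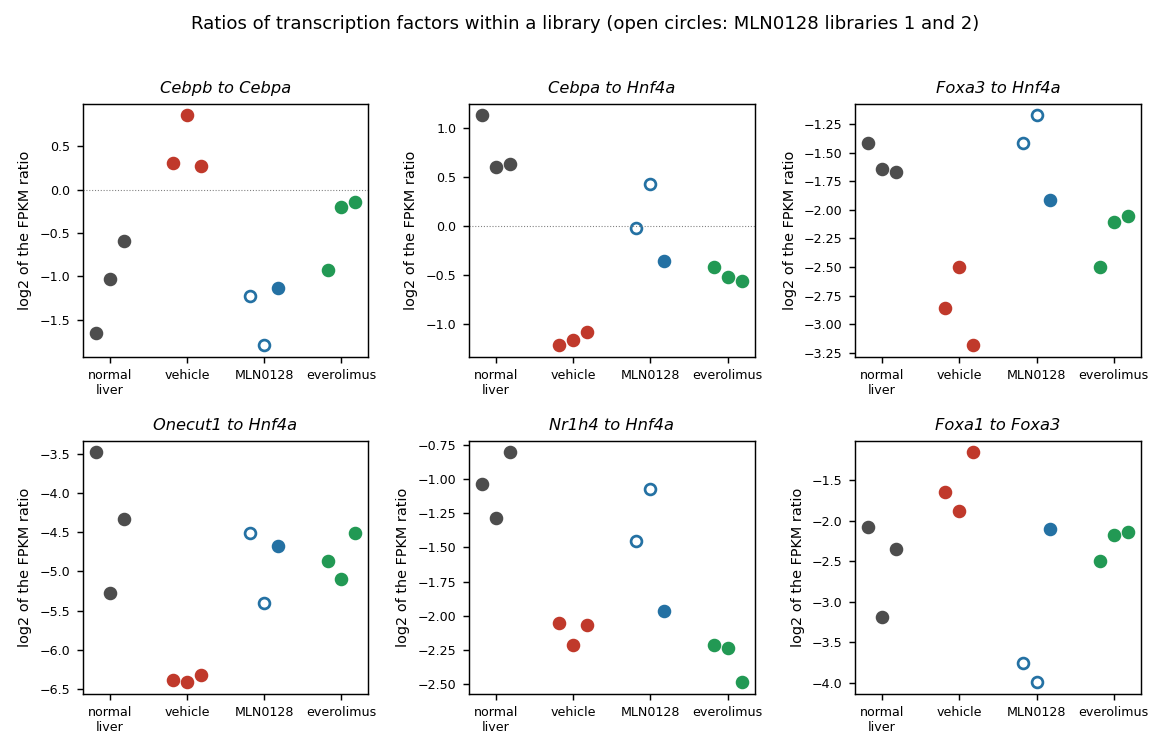
Log2 of the FPKM ratio of 2 factors within each library (vertical axes) by group, for 6 of the 9 ratios computed. Points are libraries and open circles are MLN0128 libraries 1 and 2. The ratio of Cebpb to Cebpa is above 0 (above 1 on the linear scale) in the 3 vehicle tumors and below 0 in the other 9 libraries.

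Of 29 other liver transcription factors listed, 27 were tested. In vehicle tumors 20 of them were lower than in normal liver, beside 33% of all tested genes, and 7 were not called (median −1.15). The lowest log2 fold change on the FPKM + 1 scale was that of Nr0b2, the FXR-induced repressor SHP, from 39.9 ± 21.6 to 2.66 ± 2.06 FPKM (SD, n = 3, log2 fold change −3.49). Onecut2, the paralog of Onecut1, fell from 9.38 ± 1.75 to 0.414 ± 0.203 FPKM (−2.87, a value that adding 1 FPKM makes smaller than the ratio of these means), and Nr1i3, the xenobiotic receptor CAR, was at −2.55. With plain totals 12 were lower and 5 higher.

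With MLN0128, 2 of these 27 rose against vehicle and 4 fell, beside 14.9% and 17.1% of all tested genes (6 and 4 with plain totals, to which these shares do not apply). Mlxipl (1.2, from 18.03 ± 1.85 to 45.5 ± 19.3 FPKM), which encodes the glucose-responsive factor ChREBP, and Rxrb (0.78) were higher. Atf5 (−2.21, from 157.7 ± 11 to 34.2 ± 10.2 FPKM), Cebpd (−1.56), Klf15 (−0.78) and Cebpg (−0.69) were lower. Without MLN0128 libraries 1 and 2 all 6 kept their direction, with Atf5 at −2.54, Klf15 at −1.20, Rxrb at 0.53 and Mlxipl at 0.50. Within the C/EBP family Cebpb, Cebpd and Cebpg were thus called lower and Cebpa higher. In library 3 alone these 4 genes were at −1.42, −1.30, −0.83 and 0.155. With everolimus Nr0b2 (1.95, adjusted p = 0.0241) was higher and Cebpd (−0.98, adjusted p = 0.04) lower, beside 3.78% and 6.05% of all tested genes. The 2 comparisons share the vehicle libraries.

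**Figure D4:**
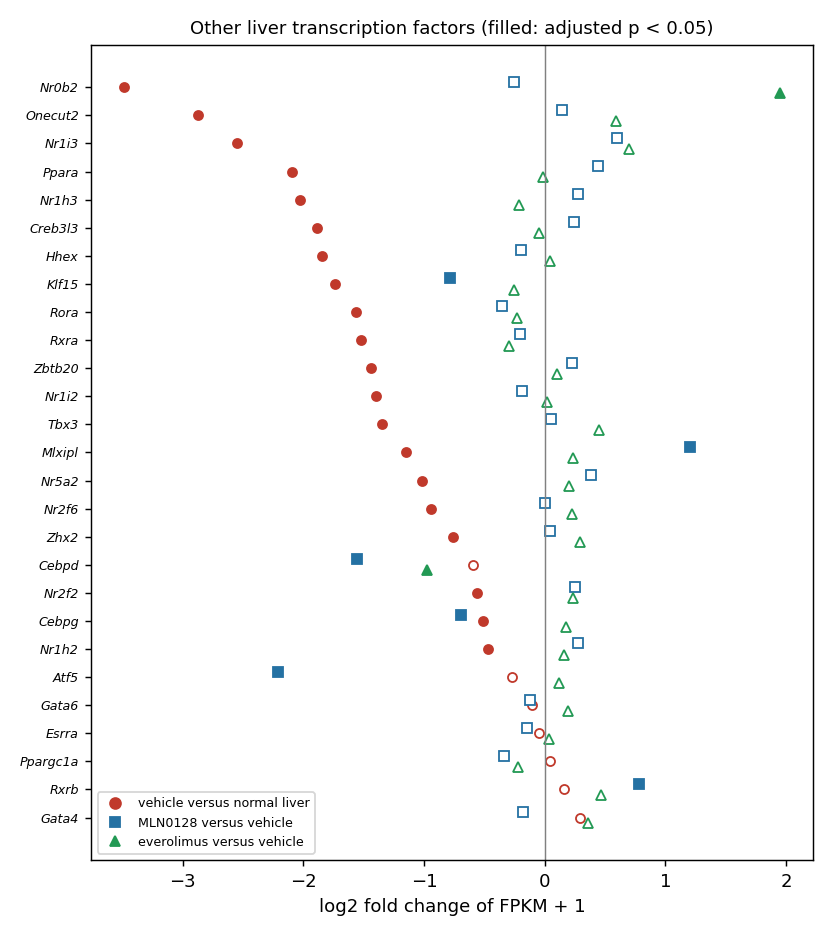
Log2 fold changes of log2(FPKM + 1) (horizontal axis) of the 27 other liver transcription factors tested (vertical axis), ordered by vehicle tumors against normal liver (circles), with MLN0128 (squares) and everolimus (triangles) against vehicle. Filled symbols have an adjusted p below 0.05, which for vehicle against normal liver are 20 genes, all below 0.

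Genes listed as targets of the 9 factors, whose regulation by these factors was not tested here, were lower in vehicle tumors in most cases. Over all tested genes 33% were called lower and 36% higher. Of 11 targets of HNF4A, 10 were lower (median −2.43), with Apoc3 at −4.97 and F9 at −3.92, whereas Apoa4 (1.31) was higher. Of 9 tested targets of FXR, 8 were lower (median −3.34), among them Slc10a1, the bile acid importer NTCP (−4.39), and Slc51b, a subunit of the basolateral bile acid exporter, was higher, at 13.7 ± 3.01 against 0.22 ± 0.0798 FPKM (3.57). Of 14 targets of C/EBP factors, 12 were lower and Lcn2 higher (2.36). Alb fell from 66600 ± 9714 to 1524 ± 496 FPKM (−5.50), and Pck1, the gluconeogenic enzyme, was at −6.32. Of 12 targets of FOXA and HNF6, 9 were lower and 3 higher, namely the fetal liver gene Afp, which rose from 2.27 ± 0.242 to 1607 ± 309 FPKM (8.93), Igfbp1 (3.44) and Tfrc (3.17). The lists share genes such as Alb, Ttr and G6pc. They do not separate targets that a factor raises from those that it lowers. A lower target, such as Slc10a1 of the FXR list, therefore does not show a less active factor.

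In MLN0128 tumors most targets did not pass the test against vehicle, in which 14.9% of all tested genes were called higher and 17.1% lower. Of HNF4A targets 1 was higher (F7 at 0.89) and 2 were lower (Ttr at −1.38 and Apoa4 at −1.23). Of FXR targets 1 was lower (Slc51b at −1.2) and of C/EBP targets 1 (Tat, tyrosine aminotransferase, at −3.36, from 136.8 ± 56 to 11.8 ± 2.81 FPKM). FOXA and HNF6 targets had 5 lower, which were Tat, Ttr, Afp (−3.22), Tfrc (−1.66) and Apoa1 (−0.84). In MLN0128 library 3 alone the differences from vehicle were −2.15 for Ttr, −1.57 for Apoa4, −1.52 for Slc51b and −3.75 for Tat. Those of Afp, Tfrc and Apoa1 were −3.31, −1.99 and −1.13, whereas F7 was at 0.26. Everolimus tumors had Ttr (−1.40), Tat (−2.07), Afp (−2.40) and Hamp (−1.77), the iron hormone hepcidin, lower, and Nr0b2 (1.95) higher. In that comparison 6.05% of all tested genes were called lower and 3.78% higher. Of the C/EBP targets that were not called, Alb was at 878, 1110 and 482 FPKM with MLN0128 against 953 to 1840 FPKM with vehicle. In contrast, G6pc, which releases glucose from its phosphate, was at 64.5, 54.7 and 19.2 FPKM against 17.9 to 31.6 FPKM, and Gys2, liver glycogen synthase, at 6.97, 10.6 and 3.07 FPKM against 2.73 to 5.96 FPKM, so that both were above every vehicle tumor in libraries 1 and 2 and within the vehicle range in library 3.

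By the smallest root mean square difference of gene-centered profiles of log2(FPKM + 1) over the 12 libraries, among 11807 genes with a mean of at least 1 FPKM, Hnf4a was most like Saraf (0.0862 on the log2 scale), Pdp2 and Hacd2. Nr1h4 was most like Slc23a1 (0.128), Bphl and Selenoo, and Cebpa most like Gm42604 (0.202), Slc38a3 and Fam213a. Cebpb was nearest to Lpin2 (0.205), Foxa3 to Nr1d2 (0.242), Prox1 to Slc26a11 (0.181), Foxa2 to Abcb10 (0.178), Foxa1 to Ifi47 (0.216) and Onecut1 to Pfkfb3 (0.306). Among the 9 themselves the closest pair was Hnf4a and Foxa2 (0.254) and the most distant Cebpa and Prox1 (1.00). All such values are descriptions, since every gene shares the same libraries and the step from normal liver to tumor.

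Markers of other cells moved as well, and the shares of all tested genes called in these comparisons are those given above. Of 6 tested cholangiocyte markers 5 were higher in vehicle tumors than in normal liver, their summed level of the 7 in the table being 82.3 to 135.9 FPKM with vehicle, 40.6 to 44.02 in normal liver, 12.7 to 33.7 with MLN0128 and 19.0 to 67.9 with everolimus, and against vehicle 5 were lower with MLN0128 and 4 with everolimus. Of 11 hepatocyte markers all 11 were lower in vehicle tumors than in normal liver, and with MLN0128 4 fell and 1 rose against vehicle. With plain totals 2 fell (Ttr and Ass1) and 2 rose (Cyp3a11 and Serpina1a). In MLN0128 library 3 alone Ttr was at −2.15, Ass1 at −1.67, Hpx at −1.39, Apoa1 at −1.13 and Cyp3a11 at 0.92 against vehicle. The 5 cholangiocyte markers kept their direction in that library, with Krt19 at −3.73, Cldn4 at −2.775, Sox9 at −1.37, Epcam at −0.84 and Prom1 at −0.66. Endothelial markers summed to 56.5 to 67.8 FPKM in normal liver and 12.3 to 21.6 FPKM in the tumors (5 of 9 lower with vehicle). Of 9 myeloid markers 3 were lower and 2 higher in vehicle tumors, with sums of 147 to 195 FPKM in normal liver and 45.8 to 132 FPKM in the tumors. Of 9 stellate cell markers 4 were lower and 5 higher, with sums of 81.2 to 111 and 43.1 to 95.4 FPKM. Lymphocyte markers summed to at most 3.02 FPKM in any library, and Cd3d and Ms4a1 were each at 0 in some. Everolimus library 2 had the highest sums of its group for hepatocyte markers (10813 FPKM) and for cholangiocyte, endothelial, myeloid, lymphocyte and stellate cell markers. The part that cell composition played in the differences of the 9 factors was not tested.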

How the data were processed

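RNA-seq was analyzed in 12 mouse liver and tumor libraries (4 groups of 3). Novogene made and sequenced the libraries. The authors counted reads per Ensembl gene, moved to Entrez genes and symbols, and deposited FPKM per gene. The submitters' processing notes name FastQC 0.11.7 and GRCm38, and the aligner and normalization are not given in the sources used here. The 9 genes, the gene lists and the tests were chosen with earlier results of these data known. Genes that reached 0.5 FPKM in 3 or more libraries (14397 of 17007) were tested on log2(FPKM + 1) in 1 model over all 12 libraries, with limma 3.58.1 (R 4.3.3), an intensity trend and 8 residual degrees of freedom. Adjusted p-values are Benjamini-Hochberg over all genes tested, with a threshold of 0.05, and treat tested against 1.5-fold. The pseudocount understates changes of low genes. The tests were checked on simulated data. Depth was read from FPKM multiplied by exon length (GENCODE M21): of values under 20 reads, 98.2 to 98.8% were within 0.1 of a whole read. P-values measure the spread between these samples, which may be technical in part. Alternatives were another pseudocount, no filter, plain library totals, quantile normalization, voom on recovered reads, only the 6 libraries compared, no trend, a replicate block, each replicate left out, and MLN0128 libraries 1 and 2 left out. Shares of all tested genes are those of the main fit. The ratios of Cebpa and Foxa3 to Hnf4a and the percentiles were added after the values were seen, as were the fit of listed genes and the ratios without those 2 libraries. Genes named besides the 9 were, per factor, the 3 most alike in profile, in each list the ends of the fold changes in the comparisons with vehicle or normal liver, and any factor or target called for a drug. The named cell markers, Cyp7a1, Cyp8b1, Gys2, Alb, G6pc, Slc10a1, Nr1i3, Apoc3 and F9, where given beyond this rule, were chosen after their values were seen. Of the listed genes, Hnf4g, Slc51a, Tf, Cftr and Ccl21a were not analysed here, and a few other listed genes are not reported here. Protein sequences were not used here.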

Additional observations from a re-analysis of the deposited data

Results flagged for a closer look

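No factor among the 9 was called between the drugs in the direct test. Of the lists, which held 132 entries with repeats, 10 genes were called (limma, adjusted p below 0.05). Differences are given as MLN0128 minus everolimus on the log2 scale. Over all tested genes 3.99% were called higher and 5.54% lower. The pooled count was near these shares, which does not hold for each list alone, and no set test was run. The 4 transcription factors among the 10 genes were lower with MLN0128: Atf5 at −2.33, Nr0b2 at −2.20, Cebpg at −0.87 and Gata4 at −0.54. Of the 9 tested genes of the FXR list 4 were lower with MLN0128, which besides Nr0b2 were the transporters Abcb11, the bile salt export pump, at −2.11, Slc51b at −1.77 and Abcb4 at −1.17. The bile acid synthesis genes Cyp8b1 (0.70) and Cyp7a1 (0.91) were not called (adjusted p = 0.35 and 0.33, limma), and Nr1h4 itself was at 0.64 and did not pass the test. Hamp was higher with MLN0128, at 1.81. Tfrc was at −1.04 and the macrophage gene Marco at −2.26. Without MLN0128 libraries 1 and 2, which differ in sex chromosome content, all 10 kept their direction. In library 3 alone Abcb11 was at −3.01, Atf5 at −2.65, Nr0b2 at −2.21, Slc51b at −2.08 and Marco at −1.97. Abcb4 was at −1.87, Tfrc at −1.37, Cebpg at −1.01, Gata4 at −0.72 and Hamp at 1.32.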

How the results depend on the processing

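Library scaling moved the results most. The share of all tested genes called in each alternative setting is not given here. A changed count of members is therefore not shown to be particular to them. With plain library totals 4 members were called in vehicle tumors against normal liver, 5 with MLN0128 against vehicle and 5 in everolimus tumors against normal liver, and against a 1.5-fold change 2 in each drug group against normal liver (3 for MLN0128 with quantile normalization, which also left Hnf4a at −0.08 and Cebpb at −0.50 uncalled in vehicle tumors). Directions turned with plain totals for Prox1 (0.10 in vehicle, 0.89 in MLN0128 and 0.45 in everolimus tumors against normal liver) and Foxa2 (0.020, MLN0128 against vehicle), and with quantile normalization for Prox1 (0.083, MLN0128 against normal liver) and Hnf4a (0.11, MLN0128 against everolimus). Without MLN0128 libraries 1 and 2, Nr1h4 turned to −0.47 against vehicle, and against everolimus Foxa1 to 0.031, Foxa3 to −0.11, Cebpa to −0.27, Nr1h4 to −0.072 and Prox1 to −0.20. For everolimus against vehicle, 1 member (Onecut1) was called with a pseudocount of 0.1 and in the fit to the 6 libraries compared.

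Leaving out 1 replicate gave 1 to 5 members called for MLN0128 against vehicle (1 without MLN0128 1 or vehicle 3, 5 without MLN0128 3), 0 to 1 for everolimus against vehicle (1 without normal liver 1 or 2) and 0 to 2 between the drugs (2 without MLN0128 3, 1 without everolimus 1). It turned Foxa2 (−0.32 to 0.094 for MLN0128 and −0.17 to 0.15 for everolimus against vehicle, −0.32 to 0.063 between the drugs), Nr1h4 (−0.061 to 0.60, MLN0128 against vehicle), Onecut1 (−0.29 to 0.0070, between the drugs) and Prox1 (−0.30 to 0.16, MLN0128 against normal liver). With the replicate block 5 members were called for MLN0128 against vehicle, Onecut1 and Prox1 being added. The replicate numbers share only a number: over 18 same-numbered pairs the correlation of deviations ran from −0.289 to 0.148, with 1 over 0.1. The causes were not tested. The low counts of Onecut1 and 3 libraries a group limit the drug comparisons.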
